A study of Mus musculus with 20 samples.

Results

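The genes described here are 9 regulators of the cell cycle and of the stress response in AgRP neurons, a hunger-promoting population of the hypothalamus named for agouti-related peptide. They were chosen by name, with earlier results of these data known: Cdkn1a, Cdkn1b and Cdkn1c, the D-type cyclins Ccnd1, Ccnd2 and Ccnd3, and Gadd45a, Gadd45b and Gadd45g. All 9 were among the 23129 genes of the count table, and all 9 passed the filter on low counts together with 13237 genes in all. The 20 libraries held RNA of about 1000 sorted tdTomato-positive neurons each, from C57BL/6 mice 25 to 30 days old, in 4 groups of 5. They were fasted Phf6 conditional knockout (cKO) mice, fasted wild-type (WT) mice, fed cKO mice and fed WT mice. The cKO mice were Phf6 flox/y; AgRP-Cre/+; Ai9/+, and the WT mice were AgRP-Cre/+; Ai9/+, so that both carried the Cre recombinase and the red reporter and the deletion is limited to cells in which AgRP-Cre acts. Phf6 lies on the X chromosome and encodes a plant homeodomain finger protein of chromatin. Food was removed at 5 pm for an overnight fast with water, and fed mice kept their food.

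Cdkn1a, Cdkn1b and Cdkn1c encode p21, p27 and p57, the Cip/Kip inhibitors that bind complexes of a cyclin with a cyclin-dependent kinase. The D-type cyclins activate Cdk4 and Cdk6, which phosphorylate the retinoblastoma protein and let a cell pass from G1 into S phase. The Gadd45 proteins are small stress-induced proteins that bind p21 and the kinase Map3k4 and have been linked to DNA demethylation. Neurons have left the cell cycle, and p21 and Gadd45 genes respond in many cell types to p53, to glucocorticoids and to FoxO factors.

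Promoter sequences of RefSeq (GRCm38.p6) were at hand for 6 of the 9 genes, with 8 starts in all, and the 250 bases before the start are shown for the 2 Cdkn1a starts, for Gadd45a and for Gadd45g, since these genes had the largest changes with fasting in cKO neurons. Capitals mark matches to the motifs searched on both strands: a p53 half-site (by its name, 10 bases), 2 such half-sites joined, the FoxO motif GTAAACA, the cyclic AMP response element TGACGTCA, the AP-1 motif TGANTCA, the E-box CACGTG and the Sp motif GGGCGG. The sequences lie at chr17:29090729-29090978 and chr17:29093519-29093768 (Cdkn1a, plus strand), chr6:67037408-67037657 (Gadd45a, minus strand) and chr13:51846425-51846674 (Gadd45g, plus strand).
Cdkn1a, upstream start: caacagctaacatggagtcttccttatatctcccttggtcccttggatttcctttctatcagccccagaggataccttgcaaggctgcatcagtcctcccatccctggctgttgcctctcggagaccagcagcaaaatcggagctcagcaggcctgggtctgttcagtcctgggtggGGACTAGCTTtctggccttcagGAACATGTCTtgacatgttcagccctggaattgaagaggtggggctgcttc
Cdkn1a, downstream start: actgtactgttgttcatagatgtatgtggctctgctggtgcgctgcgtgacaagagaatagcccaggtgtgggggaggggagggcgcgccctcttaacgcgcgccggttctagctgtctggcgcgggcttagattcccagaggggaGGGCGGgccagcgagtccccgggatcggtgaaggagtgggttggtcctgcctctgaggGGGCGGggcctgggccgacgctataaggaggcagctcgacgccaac
Gadd45a: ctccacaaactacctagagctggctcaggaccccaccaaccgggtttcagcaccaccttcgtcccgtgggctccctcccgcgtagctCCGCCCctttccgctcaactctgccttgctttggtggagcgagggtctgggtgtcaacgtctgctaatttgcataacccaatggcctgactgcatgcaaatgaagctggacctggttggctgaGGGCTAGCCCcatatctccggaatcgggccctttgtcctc
Gadd45g: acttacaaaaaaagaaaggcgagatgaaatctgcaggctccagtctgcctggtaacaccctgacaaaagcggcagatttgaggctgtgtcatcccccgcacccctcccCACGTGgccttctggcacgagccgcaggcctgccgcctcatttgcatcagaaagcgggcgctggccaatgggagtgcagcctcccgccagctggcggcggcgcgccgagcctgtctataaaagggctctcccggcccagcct
The upstream Cdkn1a promoter held 2 p53 half-sites, at bases -73 to -64 and -51 to -42 from the start, and the Gadd45a promoter held 1, at -40 to -31. Such a half-site occurred in 8.36% of the 32851 promoters of the same length. An exact match to the joined form occurred in 0.00913% of them and in none of the 8 promoters. Directly after the Cdkn1a half-site at -51 to -42 stand the bases tgacatgttc, which miss the half-site pattern only at their opening t. A joined site with a mismatch was not searched for. The downstream Cdkn1a promoter had 2 Sp motifs and the Gadd45a promoter 1, a motif present in 35.7% of all promoters. The Gadd45g promoter had 1 E-box, found in 7.15%. These are letter matches and not shown sites.

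Depth ran from 8494499 to 10000278 counts per library in fasted groups and from 10604977 to 13573524 in fed groups, and 3 counts corresponded to 0.207 to 0.387 CPM (counts per 1e+06 counted reads), the limit that a count of 0 allows for counting error only. CPM were scaled with trimmed mean of M values (TMM), and values ± SD have n = 5. Phf6 itself averaged 61.2 ± 6.9 CPM in fasted cKO and 128 ± 11 CPM in fasted WT neurons, and 70.7 ± 4.85 CPM in fed cKO and 276 ± 10.2 CPM in fed WT neurons, so a part of its counts was still present in cKO libraries. The labels do not say which exons are floxed. Summed AgRP-neuron markers, all 9 of which were detected in every group, reached 50800 to 69200 CPM in fasted cKO, 59500 to 84900 CPM in fasted WT, 26700 to 31400 CPM in fed cKO and 20700 to 22800 CPM in fed WT neurons. Markers of other cells were also present. The 3 Pomc-neuron markers summed to 440 to 1100 CPM in fasted cKO, 379 to 470 CPM in fasted WT, 313 to 417 CPM in fed cKO and 324 to 432 CPM in fed WT libraries, and Pomc itself averaged 210, 76.5, 48.7 and 50.8 CPM in these groups, while Prdm12 was 0 in fasted WT libraries. The 6 markers of KNDy and dopamine neurons summed to 55.6 to 90.8 CPM in fasted cKO, 51.1 to 62.9 CPM in fasted WT, 30.1 to 41.5 CPM in fed cKO and 29.6 to 44.5 CPM in fed WT libraries, with Tac2 at 0 in the last 3 groups. The 6 oligodendrocyte markers summed to 49.4 to 65.5 CPM in fasted cKO, 49.1 to 73.5 CPM in fasted WT, 82.6 to 102 CPM in fed cKO and 90.5 to 103 CPM in fed WT libraries. The 5 glutamatergic-neuron markers, mostly Adcyap1, summed to 8.81 to 16.2 CPM in fasted cKO, 10.9 to 15.0 CPM in fasted WT, 11.4 to 18.1 CPM in fed cKO and 22.6 to 31.9 CPM in fed WT libraries, with Nr5a1 and Fezf1 at 0 in each group. The 8 markers of tanycytes and ependyma, mostly Vim, summed to 32.9 to 66.5 CPM, those of mural cells and fibroblasts to at most 9.36 CPM, microglial markers to at most 1.84 CPM and oligodendrocyte precursor markers to at most 1.52 CPM in any library. Their part in the results below was not tested. Fasted replicates 1 and 2 stood apart from fasted replicates 3 to 5 in both genotypes, as earlier results had shown, and values that rest on either set are given with each.

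Cdkn1a, on chromosome 17 (29090976 to 29100727, plus strand), was the gene with the widest range among the 9, and 7.68% of its exon bases overlap a gene on the opposite strand. It had 373, 415, 289, 333 and 295 CPM in the 5 fasted cKO libraries and 372, 322, 284, 313 and 290 CPM in the 5 fasted WT libraries. In fed cKO libraries it had 44.9, 45.5, 43.9, 41.5 and 46.7 CPM, and in fed WT libraries 5.11, 4.09, 5.14, 4.36 and 3.53 CPM. Both fasted groups lay above both fed groups, fed cKO lay above fed WT, and the 2 fasted groups overlapped.

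In fed mice Cdkn1a was 9.95-fold higher in cKO than in WT neurons (log2 fold change 3.31 ± 0.12 SE, adjusted p = 2.79e-18, edgeR quasi-likelihood test with Benjamini-Hochberg adjustment over all tested genes). Fasting raised it 7.66-fold in cKO neurons (2.94 ± 0.093, adjusted p = 3.29e-19). In WT neurons the fasted to fed log2 ratio was 6.14 ± 0.12, or 70.6-fold. The sources do not say which contrast the genes were chosen on. The WT fasting value of Cdkn1a was known beforehand, so it is given without a test, as is every WT fasting value of the 9 genes below, and the p-values in the other contrasts hold only as far as these did not enter the choice. In fasted mice the log2 difference between cKO and WT neurons was 0.11 ± 0.085 with a 95% interval of -0.06 to 0.28 (adjusted p = 0.391), so that no difference was called and one beyond 0.28 lies outside the interval. The fasting effect in cKO minus that in WT was -3.20 ± 0.15 on the log2 scale. The comparisons share libraries: fed WT enters the WT fasting and the fed genotype contrasts, and fed cKO and both fasted groups are likewise each used in 2 of them. Fasted replicates 1 and 2 averaged 394 CPM in cKO and 347 CPM in WT, and replicates 3 to 5 averaged 306 CPM in cKO and 295 CPM in WT.

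A list of 7 astrocyte markers was, like Cdkn1a, lowest in fed WT libraries. Its summed level was 41.3 to 95.4 CPM in fasted cKO, 33.2 to 59.3 CPM in fasted WT, 28.0 to 56.9 CPM in fed cKO and 6.71 to 13.2 CPM in fed WT libraries. Most of it was Agt, the gene for angiotensinogen, which averaged 53.7, 35.9, 35.2 and 5.22 CPM in fasted cKO, fasted WT, fed cKO and fed WT neurons. Without Agt the other 6 markers summed to 3.4 to 11.7 CPM in fasted cKO, 4.5 to 21.1 CPM in fasted WT, 2.13 to 4.13 CPM in fed cKO and 2.62 to 9.74 CPM in fed WT libraries. Gfap averaged 0.325, 0.447, 0.385 and 0.574 CPM in the same order of groups, and Aqp4 was 0 in every fed cKO library. Endothelial markers, 7 in all, summed to 2.0 to 18.1 CPM in fasted cKO, 4.39 to 8.5 CPM in fasted WT, 1.92 to 6.24 CPM in fed cKO and 0.069 to 3.05 CPM in fed WT libraries, with Cdh5 at 0 in every fasted cKO library and Kdr at 0 in every fasted WT and every fed WT library. Their part in the Cdkn1a values was not tested. In such bulk libraries fewer cells of a type and less RNA per cell cannot be told apart.

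**Figure D1:**
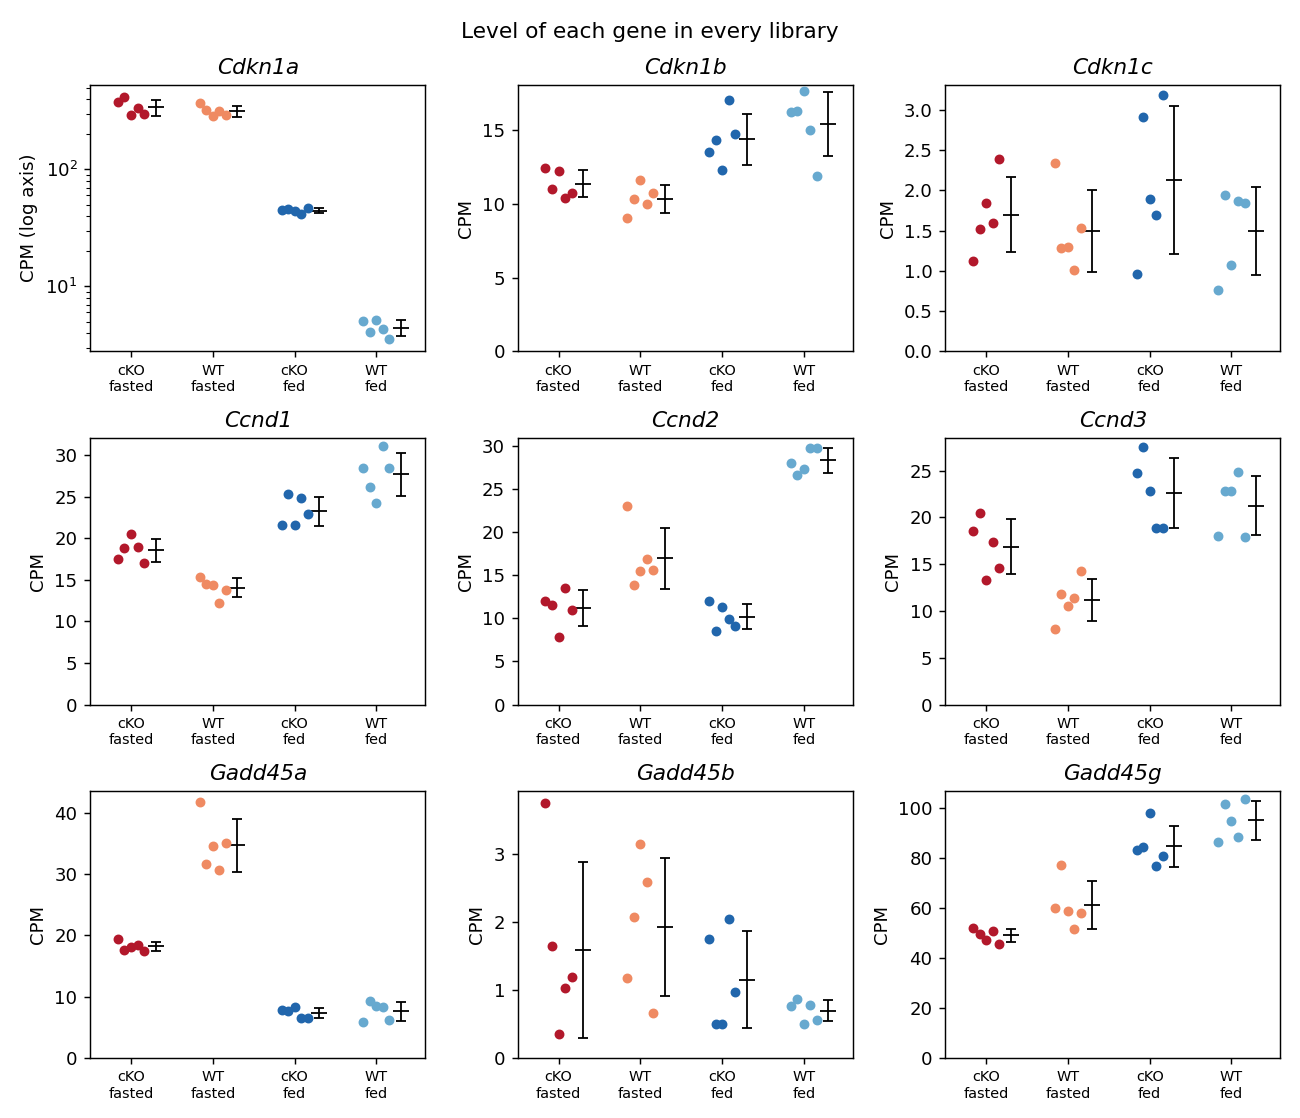
CPM of the 9 genes in each of the 20 libraries, 1 panel per gene, with fasted cKO, fasted WT, fed cKO and fed WT from left to right, the horizontal mark and bar showing mean ± SD (n = 5). The Cdkn1a axis is logarithmic, where fed cKO libraries sit at 41.5 to 46.7 CPM, between fed WT at 3.53 to 5.14 CPM and the fasted groups at 284 CPM and above.

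The other Cip/Kip genes were lower in level and moved less. Cdkn1b, on chromosome 6 (134920401 to 134925513, plus strand), averaged 11.3 ± 0.871 CPM in fasted cKO and 14.4 ± 1.76 CPM in fed cKO neurons. It fell with fasting in cKO by 0.34 on the log2 scale (SE 0.13, adjusted p = 0.0276, edgeR), the 2 groups overlapping. The call was lost without fed cKO replicate 4 (adjusted p = 0.092), without fasted cKO replicate 2 (0.0507), 4 (0.0618) or 5 (0.0556), and with fasted replicates 1 and 2 only (0.172). In WT neurons it averaged 10.3 ± 0.952 CPM after fasting and 15.4 ± 2.15 CPM when fed, a log2 ratio of -0.57 ± 0.13 with no overlap. Neither genotype contrast was called, with log2 differences of -0.10 ± 0.12 in fed mice (95% interval -0.34 to 0.14) and 0.13 ± 0.13 in fasted mice (-0.13 to 0.40). Cdkn1c, an imprinted gene on chromosome 7 (143458339 to 143461050, minus strand), had at most 3.19 CPM in any library and no call in any of the 3 tested comparisons. Its fasted to fed log2 ratio in WT neurons was 0.01 ± 0.37. Of its exon bases, 30.7% overlap a gene on the opposite strand, and reads on those bases cannot be told apart in these unstranded libraries.

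Per kilobase of exon, the Cip/Kip sum was 99.3 ± 14.8 CPM in fasted cKO, 92.0 ± 9.89 CPM in fasted WT, 16.7 ± 0.879 CPM in fed cKO and 5.37 ± 0.512 CPM in fed WT neurons. Cdkn1a made up 96.6 ± 0.687% of that sum in fasted cKO, 96.7 ± 0.429% in fasted WT and 75.0 ± 2.87% in fed cKO, against 23.3 ± 2.55% in fed WT neurons. In fed WT the leading gene was Cdkn1b, at 62.8 ± 3.61%, whereas in fed cKO it was 18.9 ± 2.39%. The order of the Cip/Kip genes by level per kilobase was therefore Cdkn1a, Cdkn1b, Cdkn1c in 3 of the 4 groups and Cdkn1b, Cdkn1a, Cdkn1c in fed WT.

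**Figure D2:**
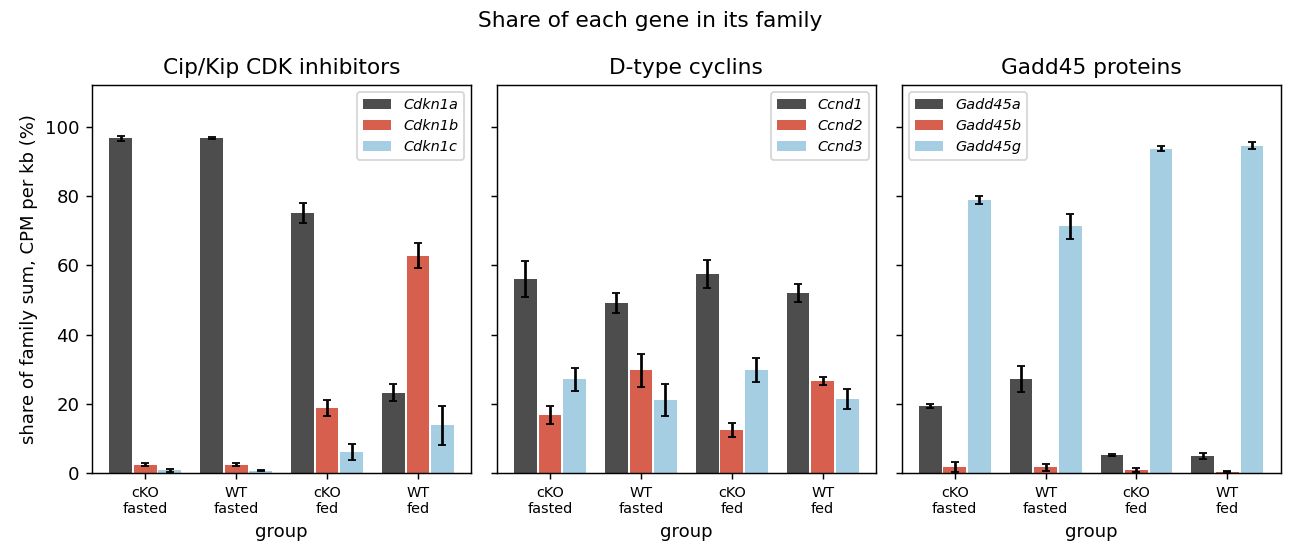
Share of each gene in its family's summed CPM per kilobase of exon, as mean ± SD of the 5 libraries of fasted cKO, fasted WT, fed cKO and fed WT. Cdkn1a holds 75.0% of the Cip/Kip sum in fed cKO and 23.3% in fed WT, and Gadd45a holds 19.4% of the Gadd45 sum in fasted cKO, 27.1% in fasted WT, 5.39% in fed cKO and 5.01% in fed WT.

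Among the D-type cyclins, only Ccnd2 was called lower in fed cKO than in fed WT neurons. Ccnd2, on chromosome 6 (127125162 to 127152193, minus strand), had 12, 11.6, 7.88, 13.5 and 11.0 CPM in fasted cKO and 23.0, 13.9, 15.5, 16.9 and 15.6 CPM in fasted WT libraries. It had 12, 8.51, 11.3, 9.89 and 9.15 CPM in fed cKO and 28.0, 26.6, 27.3, 29.8 and 29.8 CPM in fed WT libraries. All 5 cKO libraries lay below all 5 WT libraries in each feeding state, and fasted and fed cKO libraries overlapped. It was 2.78-fold lower in cKO than in WT neurons of fed mice (log2 fold change -1.48 ± 0.14, adjusted p = 8.85e-09, edgeR) and 1.52-fold lower in fasted mice (-0.60 ± 0.15, adjusted p = 0.00409). The fasted to fed log2 ratio was -0.73 ± 0.14 in WT neurons, and in cKO neurons it was 0.14 ± 0.15 with a 95% interval of -0.15 to 0.43 (adjusted p = 0.44). Ccnd2 shares 7.86% of its exon bases with opposite-strand genes, of which 9330179D12Rik averaged 3.37 ± 0.765 CPM in fasted cKO, 8.56 ± 1.84 CPM in fasted WT, 2.72 ± 0.664 CPM in fed cKO and 6.44 ± 2.07 CPM in fed WT neurons.

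Ccnd1, on chromosome 7 (144929931 to 144939925, minus strand), was higher in cKO than in WT neurons after fasting. It had 17.5, 18.8, 20.5, 19.0 and 17.0 CPM in fasted cKO and 15.3, 14.5, 14.4, 12.2 and 13.8 CPM in fasted WT libraries, with no overlap. The fed values were 21.6, 25.3, 21.6, 24.8 and 22.9 CPM in cKO and 28.4, 26.2, 24.3, 31.1 and 28.5 CPM in WT libraries, with an overlap at 24.3 to 25.3 CPM. The genotype difference in fasted mice was 0.40 ± 0.11 on the log2 scale (adjusted p = 0.00759, edgeR), and it lost its call with fasted replicates 1 and 2 only (0.30, adjusted p = 0.275). In fed mice it was -0.25 ± 0.096, not called (adjusted p = 0.0999). Fasting lowered Ccnd1 in cKO neurons by 0.32 (SE 0.1, adjusted p = 0.00789), and the ratio in WT neurons was -0.98 ± 0.10. Of its exon bases, 23.4% overlap Oraov1 on the opposite strand, which averaged 17.2 ± 4.26 CPM in fasted cKO, 17.0 ± 1.08 CPM in fasted WT, 19.7 ± 1.29 CPM in fed cKO and 18.2 ± 2.69 CPM in fed WT neurons.

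Ccnd3, on chromosome 17 (47505051 to 47599691, plus strand), followed Ccnd1 in direction after fasting. It had 18.6, 20.5, 13.3, 17.4 and 14.6 CPM in fasted cKO and 8.07, 11.8, 10.5, 11.4 and 14.3 CPM in fasted WT libraries, which overlapped. Fed libraries had 24.7, 27.5, 22.8, 18.9 and 18.9 CPM in cKO and 18.0, 22.8, 22.8, 24.8 and 17.9 CPM in WT, and overlapped throughout. It was 1.5-fold higher in fasted cKO than in fasted WT neurons (log2 0.59 ± 0.16, adjusted p = 0.00842, edgeR), and not called with fasted replicates 3 to 5 only (0.32, adjusted p = 0.189). In fed mice the difference was 0.09 ± 0.14 (95% interval -0.19 to 0.36, adjusted p = 0.769). Ccnd3 fell with fasting in cKO neurons by 0.42 (SE 0.15, adjusted p = 0.0172), a call lost without fed cKO replicate 2 (adjusted p = 0.0654), without fasted cKO replicate 3 (0.0599) and with fasted replicates 1 and 2 only (0.316). In WT neurons the ratio was -0.92 ± 0.15. Bysl, on the opposite strand, covers 4.11% of its exon bases and averaged 25.9 ± 4.77 CPM in fasted cKO, 18.7 ± 2.61 CPM in fasted WT, 19.2 ± 1.61 CPM in fed cKO and 26.8 ± 1.6 CPM in fed WT neurons. The summed D-type cyclins per kilobase of exon were 7.05 ± 0.483 CPM in fasted cKO, 6.06 ± 0.366 CPM in fasted WT, 8.59 ± 0.524 CPM in fed cKO and 11.3 ± 0.746 CPM in fed WT neurons, with Ccnd1 the largest part in each group (49.1% to 57.5%).

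The Gadd45 genes moved in opposite directions. Gadd45a, on chromosome 6 (67035096 to 67037457, minus strand), had 19.4, 17.6, 18.1, 18.4 and 17.4 CPM in fasted cKO and 41.7, 31.6, 34.6, 30.6 and 35.0 CPM in fasted WT libraries. It had 7.77, 7.66, 8.34, 6.48 and 6.45 CPM in fed cKO and 5.8, 9.26, 8.49, 8.26 and 6.11 CPM in fed WT libraries. Fasted WT lay above fasted cKO, which lay above both fed groups, and the fed groups overlapped. Fasting raised it 2.47-fold in cKO neurons (log2 1.31 ± 0.13, adjusted p = 3.85e-09, edgeR), beside a log2 ratio of 2.19 ± 0.13 in WT neurons. It was 1.91-fold lower in fasted cKO than in fasted WT neurons (-0.93 ± 0.13, adjusted p = 8.9e-06), whereas in fed mice the difference was -0.05 ± 0.14 (95% interval -0.32 to 0.22, adjusted p = 0.877). E230016M11Rik, on the opposite strand, covers 19.1% of its exon bases and averaged 11.9 ± 0.9 CPM in fasted cKO, 25.5 ± 4.25 CPM in fasted WT, 4.31 ± 1.16 CPM in fed cKO and 3.07 ± 0.785 CPM in fed WT neurons. On these shared bases, reads of the 2 genes cannot be told apart.

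Gadd45g, on chromosome 13 (51846678 to 51848468, plus strand), was the most abundant Gadd45 gene per kilobase in each group. It had 52.0, 49.5, 47.3, 50.8 and 45.8 CPM in fasted cKO and 60.2, 77.2, 59.0, 51.6 and 58.0 CPM in fasted WT libraries, which overlapped. Fed libraries had 83.3, 84.4, 98.3, 77.0 and 80.9 CPM in cKO and 86.5, 102, 95.1, 88.7 and 104 CPM in WT. Fasting lowered it 1.73-fold in cKO neurons (log2 -0.79 ± 0.088, adjusted p = 1.86e-08, edgeR), with a ratio of -0.64 ± 0.087 in WT neurons. It was lower in fasted cKO than in fasted WT neurons by 0.32 (SE 0.09; log2 -0.32, adjusted p = 0.0133), a call lost with fasted replicates 3 to 5 only (-0.23, adjusted p = 0.0583), and in fed mice the difference was -0.17 ± 0.085 (adjusted p = 0.238).

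Gadd45b, on chromosome 10 (80930073 to 80932204, plus strand), was near the counting limit. Its values were 0.348 to 3.75 CPM in fasted cKO, 0.662 to 3.15 CPM in fasted WT, 0.49 to 2.05 CPM in fed cKO and 0.5 to 0.861 CPM in fed WT libraries, resting on 3 to 30 counts per library. No tested comparison called it, and all pairs of groups overlapped. Per kilobase of exon the 3 Gadd45 genes summed to 53.1 ± 3.15 CPM in fasted cKO, 73.1 ± 8.15 CPM in fasted WT, 77.2 ± 6.98 CPM in fed cKO and 85.9 ± 6.76 CPM in fed WT neurons.

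Counted together, fasting in cKO neurons called 2 of the 9 genes higher (Cdkn1a and Gadd45a), where 26% of all tested genes were called higher, and 4 lower (Cdkn1b, Ccnd1, Ccnd3 and Gadd45g), where 27% of all tested genes were called lower. In fed mice cKO called 1 gene higher (Cdkn1a; 5.87% of all tested genes) and 1 lower (Ccnd2; 3.81%). In fasted mice it called 2 higher (Ccnd1 and Ccnd3; 11.5%) and 3 lower (Ccnd2, Gadd45a and Gadd45g; 8.84%). In WT neurons the fasted and fed libraries of 7 genes did not overlap, 2 higher and 5 lower after fasting. The share of all tested genes without overlap was not computed, so nothing is read from this count. By the edgeR test, which is a different measure, 29.6% of all tested genes were called higher and 31.3% lower in that contrast. The median log2 change of all tested genes was within 0.05 of 0 in each comparison.

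**Figure D3:**
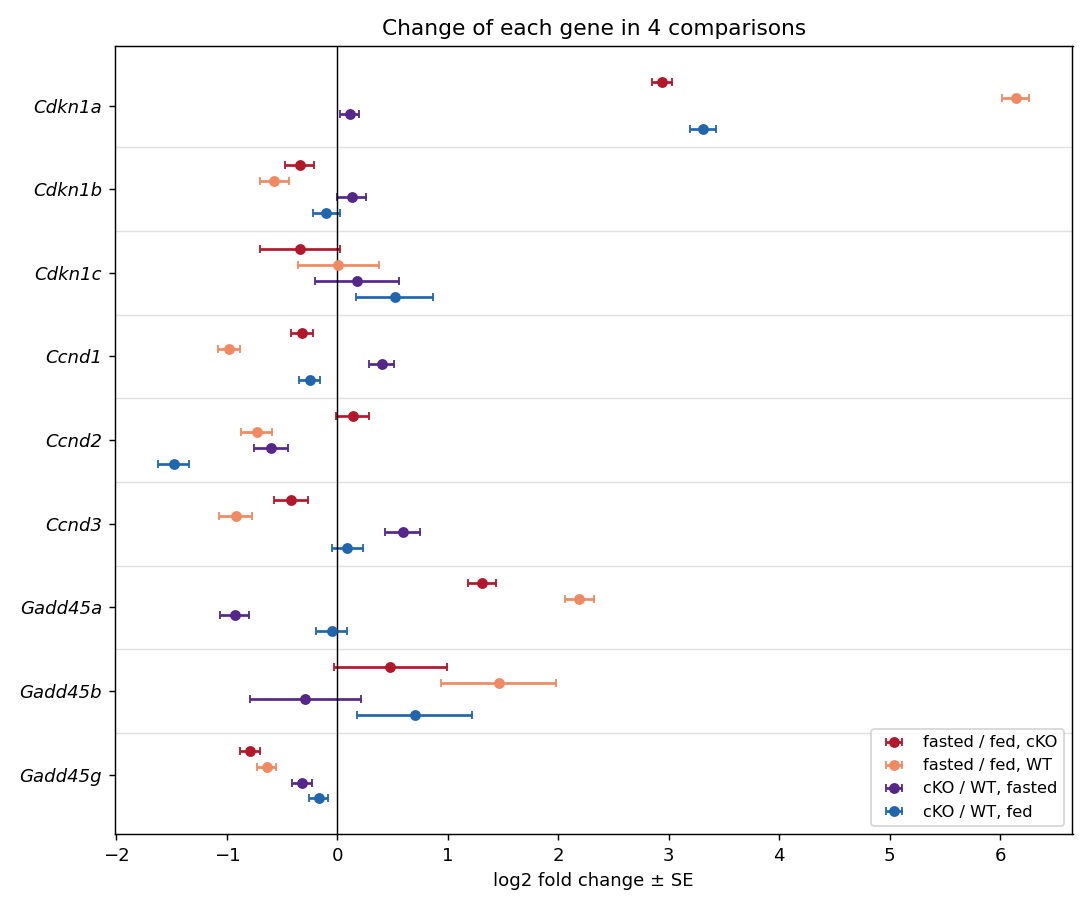
Log2 fold change ± SE of each gene in 4 comparisons (fasted over fed in cKO and in WT, and cKO over WT in fasted and in fed mice), with 5 libraries per group. Cdkn1a is at 6.14 and 2.94 for fasting in WT and cKO and at 3.31 for cKO over WT in fed mice, and at 0.11 in fasted mice.

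The surrounding pathway was read from gene lists written from general knowledge with earlier results known. Of 19 tested p53 target genes, fasting called 6 higher and 6 lower in cKO neurons (26% and 27% of all tested genes) and 5 higher and 6 lower in WT neurons (29.6% and 31.3%). In fed mice 3 were higher and 1 lower in cKO (5.87% and 3.81% of all tested genes), and in fasted mice 2 were higher and 3 lower (11.5% and 8.84%). The fasting effect differed by genotype for 1 higher and 3 lower in cKO, where 8.87% of all tested genes were called with a higher and 8.44% with a lower fasting effect. Btg2, an antiproliferative gene, averaged 106 ± 8.66 CPM in fasted cKO, 93.4 ± 41.3 CPM in fasted WT, 71.2 ± 6.42 CPM in fed cKO and 16.1 ± 1.19 CPM in fed WT neurons. In fed mice it was higher in cKO by 2.14 ± 0.18 on the log2 scale (adjusted p = 1.76e-09, edgeR). Plk2, a stress-induced polo-like kinase, averaged 55.2 ± 5.32, 59.2 ± 10.8, 39.2 ± 7.84 and 11.4 ± 2.25 CPM in fasted cKO, fasted WT, fed cKO and fed WT neurons and was higher in fed cKO by 1.78 ± 0.15 (adjusted p = 9.32e-10). Pmaip1, the BH3-only gene for Noxa, averaged 4.09 ± 1.37 CPM in fasted cKO and 0.283 ± 0.169 CPM in fed cKO neurons (log2 3.78 ± 0.55, adjusted p = 1.3e-06), and its fed genotype difference was not called (-0.88 ± 0.66, adjusted p = 0.451).

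Of the 8 tested genes for p53 and its regulators, Mdm2, the ligase that degrades p53, rose with fasting in cKO neurons by 0.31 ± 0.072 (adjusted p = 0.000708, edgeR) and in WT neurons by 0.71 ± 0.073 (adjusted p = 2.03e-09). Chek1, a checkpoint kinase gene, averaged 10.9 ± 1.52 CPM in fasted cKO, 17.2 ± 2.92 CPM in fasted WT, 4.16 ± 0.645 CPM in fed cKO and 2.59 ± 0.401 CPM in fed WT neurons, rising with fasting by 1.38 ± 0.17 in cKO (adjusted p = 6.8e-08) and by 2.73 ± 0.17 in WT (adjusted p = 1.3e-13). Atm, the kinase that senses DNA breaks, fell with fasting in cKO by 1.05 (SE 0.17, adjusted p = 7.46e-06).

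A list of FoxO factors and genes taken as FoxO targets, not limited to the cell cycle, had 9 tested genes. Of these, 5 were higher and 0 lower in fed cKO than in fed WT neurons (5.87% and 3.81% of all tested genes). The median log2 difference of the 9 genes was 0.54, beside a median over all tested genes of 0.00806. The list was written with earlier results of these data known. Trib1, a pseudokinase gene, averaged 10.6 ± 1.61 CPM in fasted cKO, 11.3 ± 1.98 CPM in fasted WT, 9.04 ± 0.739 CPM in fed cKO and 2.43 ± 0.446 CPM in fed WT neurons and was higher in fed cKO by 1.89 ± 0.17 (adjusted p = 7.26e-09, edgeR). Bnip3, a mitophagy receptor gene that shares 22.3% of its exon bases with other genes, was higher by 0.57 ± 0.059 (adjusted p = 6.68e-08). Fasting raised 2 and lowered 2 in cKO neurons (26% and 27% of all tested genes) and raised 5 and lowered 2 in WT neurons (29.6% and 31.3%), and Sesn3 fell in cKO by 0.79 (SE 0.14, adjusted p = 1.83e-05). In fasted mice 1 was higher and 0 lower in cKO (11.5% and 8.84% of all tested genes).

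**Figure D4:**
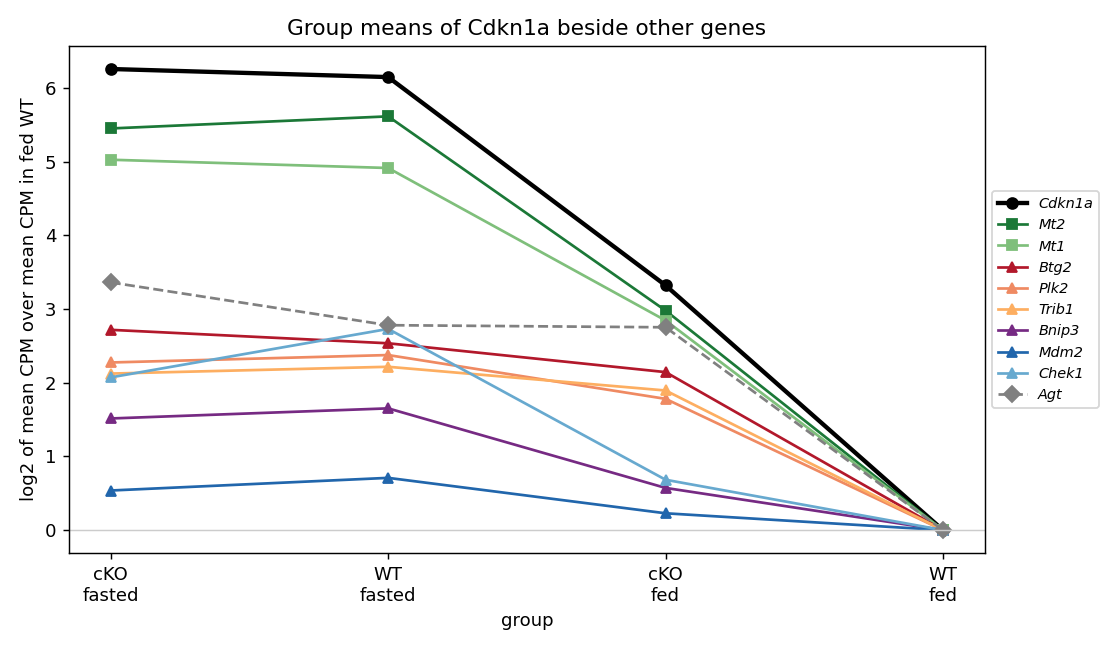
Log2 of the mean CPM in each group over the mean in fed WT, for Cdkn1a, its 2 nearest genes Mt2 and Mt1, 6 genes of the p53 and FoxO lists, and the astrocyte-list gene Agt (5 libraries per group). The 6 list genes are a pick, each lowest in fed WT, and do not stand for their lists. Genes of these lists that fell with fasting, such as Atm and Sesn3, are not drawn. In fed cKO neurons Cdkn1a averaged 44.5 CPM against 4.45 CPM in fed WT, and Agt 35.2 against 5.22 CPM.

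Of 15 tested kinases and other cyclins, fasting called 6 higher and 0 lower in cKO neurons (26% and 27% of all tested genes) and 5 higher and 2 lower in WT neurons (29.6% and 31.3%), and the others had no call. The cKO contrasts called 0 higher and 1 lower in fed mice (5.87% and 3.81% of all tested genes) and 3 higher and 1 lower in fasted mice (11.5% and 8.84%). Cdk7, a kinase that activates other cyclin-dependent kinases, rose by 0.60 ± 0.075 in cKO (adjusted p = 1.24e-07, edgeR) and 0.51 ± 0.074 in WT (adjusted p = 8.77e-07). Ccnk, for cyclin K, rose by 0.74 ± 0.14 in cKO (adjusted p = 5.19e-05). Among the INK4 inhibitors 1 of 4 was tested, Cdkn2d, which averaged 133 ± 12.5 CPM in fasted cKO, 131 ± 8.04 CPM in fasted WT, 135 ± 3.57 CPM in fed cKO and 180 ± 6.15 CPM in fed WT neurons. It was lower in fed cKO by 0.41 (SE 0.06, adjusted p = 2.43e-05). The E2F repressor gene E2f6 averaged 67.5 ± 2.02 CPM in fasted cKO and 40.4 ± 2.83 CPM in fasted WT neurons, and was higher in fasted cKO by 0.74 ± 0.073 (adjusted p = 1.06e-07). Of 20 genes of DNA replication and mitosis 14 were tested. Fasting called 3 of them higher and 1 lower in cKO (26% and 27% of all tested genes) and 2 higher and 4 lower in WT neurons (29.6% and 31.3%). In fed mice 1 was higher and 1 lower in cKO (5.87% and 3.81%), and in fasted mice 3 were higher and 0 lower (11.5% and 8.84%). Of the tested genes, Mki67 rose with fasting in WT neurons by 4.86 ± 0.79 (adjusted p = 6.01e-06, edgeR), from 0.0441 ± 0.0405 to 1.61 ± 1.08 CPM. Its fed WT mean lies below the 0.207 to 0.241 CPM that 3 counts make up in those libraries. The size of this log2 change therefore rests on almost no fed WT counts. Mcm4 fell with fasting in WT neurons by 0.56 (SE 0.15, adjusted p = 0.0022). Mcm6, at group means of 12.2 to 23.8 CPM, was higher in cKO by 0.66 ± 0.16 in fed mice (adjusted p = 0.00834). In fasted mice it was higher by 0.51 ± 0.18 (adjusted p = 0.0379). Among the genes that failed the filter on low counts, Cdk1, Ccnb2 and Ccnb1 reached at most 2.38, 2.39 and 0.767 CPM and Top2a 0.639 CPM in any library.

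Of 11 tested genes of the Gadd45 stress kinase pathway, fasting called 2 higher and 3 lower in cKO neurons (26% and 27% of all tested genes) and 3 higher and 4 lower in WT neurons (29.6% and 31.3%). The edgeR test called 0 of them in each genotype contrast, where 5.87% of all tested genes were higher and 3.81% lower in fed mice, and 11.5% and 8.84% in fasted mice. Mapk8, the gene for the kinase JNK1, rose with fasting by 0.69 ± 0.12 in cKO (adjusted p = 1.6e-05, edgeR) and 0.77 ± 0.12 in WT neurons (adjusted p = 2.58e-06). Of 12 tested genes of DNA demethylation and excision repair, fasting called 4 higher and 3 lower in cKO (26% and 27% of all tested genes). In WT neurons it called 4 higher and 2 lower (29.6% and 31.3%). The cKO contrasts called 0 in fed mice (5.87% and 3.81%) and 0 higher and 1 lower in fasted mice (11.5% and 8.84%). The genes named next all rose with fasting, and the 3 that fell in cKO are not named. Ercc5 and Ercc1, which encode nuclease components of excision repair, rose in cKO by 1.01 ± 0.087 (adjusted p = 1.36e-10) and 0.78 ± 0.079 (adjusted p = 2.73e-09), and Xpa, a damage-binding protein gene, by 0.67 ± 0.083 (adjusted p = 1e-07) and was lower in fasted cKO than fasted WT by 0.42 (SE 0.082, adjusted p = 0.000598).

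The genes with the levels most like those of the members over the 20 libraries were found as the smallest root mean square difference of log2 CPM, each gene centred on its mean, among 9968 genes. For Cdkn1a they were Mt2 (0.44), Mt1 (0.56), Svs2 (0.81), Layn (0.86) and Spry4 (0.92), against a median of 2.57 over all those genes. Mt2 averaged 141 ± 58 CPM in fasted cKO, 158 ± 42 CPM in fasted WT, 25.4 ± 6.61 CPM in fed cKO and 3.22 ± 0.493 CPM in fed WT neurons. For Gadd45g they were Ampd2 (0.16), Atxn2l (0.16), Bcas3 (0.17), Taldo1 (0.18) and Kif5a (0.18), against a median of 0.47. For Ccnd2 they were Fstl1 (0.29), Ss18 (0.33), Phf6 itself (0.37), Nfic (0.38) and Rhoc (0.39), against a median of 0.68.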

How the data were processed

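Per the labels' protocols, libraries of sorted AgRP neurons were built with SMART-seq v4 (15 cDNA cycles) and Nextera XT, which do not mark strand. Per the submitters' processing notes, the tools were Trimmomatic 0.36, HISAT2 2.1.0, featureCounts of Subread 1.6.2 and DESeq2 1.20.0 on GRCm38. Not given in the sources used here: gene annotation, strand setting, and how shared reads were counted. Deposited counts are raw counts per gene, and the authors' normalized table was not used. Of 23129 names, 95.4% matched GENCODE M21 (GRCm38), the source of coordinates, lengths and exon overlaps.

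The counts were tested with edgeR 4.0.16 (R 4.3.3): TMM, filterByExpr (minimum count 10, minimum total 15), 4 group means over 20 libraries, quasi-likelihood test, Benjamini-Hochberg over 13237 genes, threshold 0.05. SE is the absolute log2 fold change over the square root of F, and 95% intervals use the normal quantile. The members and lists were chosen with earlier results of these data known, on a contrast that is not stated, so members have no p for fasting in wild type, which was known, or for the interaction. The genes open to naming were the members, Phf6, up to 4 genes per list with the smallest p, and the 5 nearest genes by level; those in the text are a subset picked after their values were seen. The labels do not say whether each library is a separate mouse, so p-values measure the spread between these libraries, which may be technical. The labels do not say whether replicate numbers pair libraries, and the main fit had no replicate term. No 2 libraries were near-identical. Alternatives were DESeq2 1.42.0 size factors and Wald test, upper-quartile scaling, no filter, library totals alone, a replicate term, each library left out, and fasted replicates 1 and 2 or 3 to 5 only. Tables and plots used Python 3.11.15.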

Additional observations from a re-analysis of the deposited data

Results flagged for a closer look

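Ccnd1 was higher in every fasted cKO library and lower in every fed cKO library than the WT mean of the same feeding state, and the genotype effects differ by 0.66 on the log2 scale. This difference was not tested, since it contains the WT fasting contrast, which was known when the members were chosen.

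At an adjusted p under 0.05, the fasting effect differed between genotypes for 9 list genes named above (edgeR interaction, 5 libraries per group). The list of DNA replication and mitosis was left out. Of all tested genes, 8.87% had a higher and 8.44% a lower fasting effect in cKO. The 9 genes were ranked on contrasts that include WT fasting, a part of the interaction, and picked after their values were seen. Nothing is therefore read from their number. Ccnh, Sesn1, Klf6, Map2k3, Map2k7 and Tet2, open to naming but not named above, were also called. In the list left out, the calls of Mki67 (adjusted p = 0.019) and Cdt1 (0.0481) rested on group means of at most 1.61 and 3.32 CPM. The fasting effect in cKO minus that in WT, on the log2 scale, was -1.99 for Trib1, -1.96 for Btg2, -1.88 for Plk2, -1.34 for Chek1, -0.71 for Bnip3, -0.67 for Xpa and -0.40 for Mdm2. It was 0.78 for E2f6 and 0.43 for Cdkn2d. The Mdm2 call was lost with fasted replicates 1 and 2 only (-0.30, adjusted p = 0.0892).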

How the results depend on the processing

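Of 711 tested values of the 9 genes under the alternatives, 347 were of comparisons called in the main fit, and 11 of these lost their call. Of the 711, 0 gained a call and 5 changed sign (Cdkn1c, Gadd45a and Gadd45b, uncalled each time). Some of the fits left out a library that the comparison did not use. Of 486 values without a test, 7 moved by more than the SD between replicates and 8 changed sign (Cdkn1c and Gadd45b). With fasted replicates 1 and 2 only, 2 members were called lower for fasting in cKO, where 3758 of 13896 tested genes were lower. In the same fit 1 member was called higher for cKO in fasted mice, where 1014 genes in all were higher and 668 lower. With fasted replicates 3 to 5 only, 1 member was called higher for cKO in fasted mice, where 1933 of 13581 tested genes were higher. There the interaction called 1810 genes higher and 1793 lower. In the same sets the Ccnd3 interaction was 0.92 and 0.23, and that of Gadd45b 0.06 and -2.01. Genes lower in fed cKO ran from 332 (without fed cKO replicate 2) to 621 with 1 library left out. The cKO effect on Btg2 in fasted mice, 0.18 and not called with all libraries (adjusted p = 0.476), reversed to -0.45 with fasted replicates 1 and 2 only (adjusted p = 0.00415), against 0.78 with replicates 3 to 5 only. A replicate block gave 1556 genes higher and 1229 lower for cKO in fasted mice and changed no member's call. Of 20 libraries, 5 correlated best with a library of the same number in another group. The mean correlation was 0.0112 for pairs of the same number and -0.00274 for other pairs, so no pairing is read from the data. Library totals alone moved 6 group levels by more than 1 SD. Causes of these differences were not tested. Cdkn1c and Gadd45b had too few counts for small differences to be detectable.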
